A study of Mus musculus with 2 samples.

Results

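The 10 genes described here are immediate early genes of the EGR, FOS and JUN families and their companions: Egr1, Fos, Fosb, Fosl1, Jun, Junb, Jund, Ier2, Ier3 and Dusp1. They were taken by name and not by a cut on their values, although earlier results of these data were known. Each matched 1 Ensembl identifier among the 25749 in the deposited values. The study sequenced RNA of mouse E14.1 cells, an embryonic stem cell line, that carried either T136A AHCY or WT AHCY, with 1 library for each genotype. AHCY is the enzyme that breaks down S-adenosylhomocysteine, the by-product of methylation, and in the T136A form a threonine is exchanged for alanine. How the T136A cells were made, whether they stem from 1 clone, and which medium or treatment they had is left unsaid by the labels. With 1 library per genotype there was no spread between replicates. "Higher" and "lower" therefore refer to the 2 libraries, and no difference was tested against biological variation.

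Immediate early genes are transcribed within minutes of a growth signal, a stress or a change of medium, without new protein synthesis, and their messages are usually short-lived. Signals that run through RAS and ERK reach them by way of the serum response factor SRF and its ETS partners ELK1, ELK3 and ELK4, and by way of CREB. FOS and JUN proteins pair through leucine zippers to form AP-1, the EGR proteins are zinc finger factors, and DUSP1 closes the loop by removing phosphate from MAP kinases. In embryonic stem cells FGF4 signalling through ERK keeps some of these genes transcribed and prepares the cells for differentiation.

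Values are RPKM, reads scaled to exon length and to library size. Totals implied by the values were 18396840 reads for T136A and 17506154 reads for WT, and whole read numbers could be recovered for most genes. The main measure is a log2 ratio, T136A over WT, taken after 1 RPKM was added to each value; it understates the change of weakly expressed genes, and 2-fold on this scale was the limit for a count. Plain RPKM ratios are printed with 95% counting intervals (exact conditional binomial, Clopper-Pearson), which cover counting error only. Ahcy itself was at 56.6 RPKM in T136A and 52.9 RPKM in WT; an amino acid exchange need not change this level, so it does not check the labels. All 10 embryonic stem cell markers reached 1 RPKM, with a summed level of 4178 RPKM in T136A and 4239 RPKM in WT and log2 ratios on both sides of 0. Utf1 was the 1 of the 10 at least 2-fold higher (284 RPKM in T136A and 94.2 RPKM in WT), against 3.13% of all genes. Nanog was lowest by ratio (517 RPKM in T136A and 673 RPKM in WT). Of 14 feeder fibroblast markers 10 were found, with a summed level of 90.1 RPKM in T136A and 125 RPKM in WT, and 4 of the 6 that reached 1 RPKM had a positive log2 ratio. S100a6 (28.0 RPKM in T136A and 13.3 RPKM in WT) and Thy1 (5.32 RPKM in T136A and 2.50 RPKM in WT) were higher in T136A. Fn1 (32.9 RPKM in T136A and 93.4 RPKM in WT) and Ccn2 (1.27 RPKM in T136A and 3.03 RPKM in WT) were lower. The defining collagens Col1a1 (0.530 RPKM in T136A and 0.470 RPKM in WT) and Col1a2 (0.0525 RPKM in T136A and 0.0368 RPKM in WT) were near 0, and Acta2 and Postn were listed at 0 in WT. The 8 primitive endoderm markers summed to 8.08 RPKM in T136A and 4.58 RPKM in WT, with none listed at 0. Of the 8, 4 reached 1 RPKM, and Sox17 and Gata6 led these 4 by ratio. Sox17 was at 1.38 RPKM in T136A and 0.551 RPKM in WT, and Gata6 at 1.68 RPKM in T136A and 0.805 RPKM in WT. Both reached 1 RPKM in T136A only. The part of these marker lists in the results below was not tested.

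The 10 genes did not move together. Egr1, Fos and Ier3 were higher in the T136A library, at 6.11, 2.94 and 2.75 times their WT level in plain RPKM. Jund was lower, at 0.444 times, and Dusp1 at 0.611 times. Jun, Junb and Ier2 were nearly level between the libraries, and Fosb and Fosl1 lay under 1 RPKM in both. In RNA from many cells, fewer cells that express a gene and less RNA per cell cannot be told apart. On the main measure 2 of the 8 genes that reached 1 RPKM in at least 1 library, Egr1 and Ier3, were at least 2-fold higher, against 3.13% of all 12320 genes at that level. None was at least 2-fold lower, against 3.10% of all genes. Egr1 and Fos reached 1 RPKM in the T136A library only, so they could enter this count only by being higher there. In plain RPKM 3 of the 8 were at least 2-fold higher (6.30% of all genes) and 1 at least 2-fold lower (6.36% of all genes). The median log2 ratio was 0.10 over these 8 genes, beside -0.03 over all 12320 genes. With no minimum level it was 0.11 over all 10, beside 0 over all genes.

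**Figure D1:**
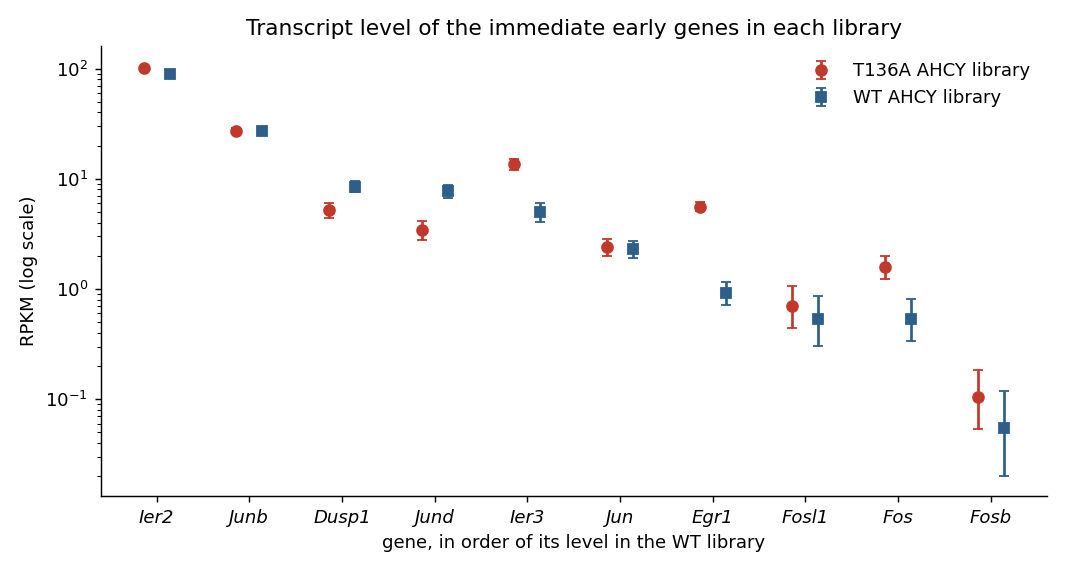
Transcript level of each immediate early gene in RPKM on a log axis, in the T136A library (circles) and the WT library (squares), with exact Poisson 95% limits of the read number as bars. Egr1, Fos and Ier3 sit above their WT value, Jund and Dusp1 below it, and Ier2 is the highest of the 10 in both libraries, at 101 RPKM in T136A and 90.2 RPKM in WT.

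Levels differed widely between the genes. Among all genes, Ier2 stood at percentile 97.7 in T136A and 97.3 in WT, and Fosb at percentile 32.9 in T136A and 29.3 in WT. In T136A the order was Ier2, Junb, Ier3, Egr1, Dusp1, Jund, Jun, Fos, Fosl1 and Fosb. In WT it was Ier2, Junb, Dusp1, Jund, Ier3, Jun, Egr1, Fosl1, Fos and Fosb. Egr1 was thus at rank 4 of the 10 in T136A and at rank 7 in WT. Ier3 was at rank 3 in T136A and at rank 5 in WT. Judged by exact Poisson limits, neighbours in T136A that could not be told apart were Egr1 and Dusp1, and Jund and Jun. In WT these were Dusp1 and Jund, Egr1 and Fosl1, and Fosl1 and Fos. Ier2 alone held 62.9% of the summed RPKM of the 10 genes in T136A and 63.2% in WT.

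Egr1 encodes a zinc finger transcription factor that growth factors switch on through ERK and SRF (ENSMUSG00000038418; GRCm38 chromosome 18, 34859823 to 34864984, plus strand, GENCODE M21). It was at 5.60 RPKM in T136A and 0.917 RPKM in WT, from 462 reads in T136A and 72 in WT. The 95% counting interval of the ratio of 6.11 ran from 4.75 to 7.94. Its log2 ratio of 1.78 had rank 72 from the top among 12320 genes, and it was the highest of the 10 genes on both scales. The paralogs of Egr1 were hardly detected. Egr2 had 6 reads in T136A and 3 in WT, Egr3 had 2 in T136A and 0 in WT, and Egr4 had 12 in T136A and 7 in WT. These numbers were too low to tell the libraries apart.

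The FOS family supplies the AP-1 partners that cannot pair with themselves. Fos (ENSMUSG00000021250; chromosome 12, 85473890 to 85477273, plus strand) was at 1.57 RPKM in T136A and 0.534 RPKM in WT, from 68 reads in T136A and 22 in WT. The ratio of 2.94 had an interval of 1.796 to 4.997, while the log2 ratio with 1 RPKM added was 0.75 and stayed short of 2-fold. Fosb (ENSMUSG00000003545; chromosome 7, 19302696 to 19310051, minus strand) was at 0.104 RPKM in T136A and 0.0549 RPKM in WT. With only 12 reads in T136A and 6 in WT its interval, 0.661 to 6.18, held 1, so no difference was detectable at this depth. Fosl1, the gene of FRA-1 (ENSMUSG00000024912; chromosome 19, 5447547 to 5455946, plus strand), was at 0.701 RPKM in T136A and 0.535 RPKM in WT. Its values were whole reads, 22 in T136A and 16 in WT, at an exon length of 1707 bases and not at the 2033 bases of GENCODE M21. The interval of its ratio of 1.31 also held 1 (0.656 to 2.67). Fosl2, the remaining FOS gene and chosen here after its value was seen, had 65 reads in T136A and 33 in WT, a ratio of 1.87 (1.21 to 2.94). FOS family messages were weakly expressed throughout, and of the 3 in the set only Fos had an interval that excluded 1.

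The JUN family, whose proteins pair with FOS or with each other, was more abundant and did not share the ratio of Fos. Jun (ENSMUSG00000052684; chromosome 4, 95049034 to 95052222, minus strand) was at 2.39 RPKM in T136A and 2.29 RPKM in WT, a ratio of 1.04 (0.813 to 1.33). Junb (ENSMUSG00000052837; chromosome 8, 84974484 to 84978718, minus strand) was at 27.1 RPKM in T136A and 26.9 RPKM in WT, from 1146 reads in T136A and 1085 in WT. Its ratio of 1.01 had the narrow interval 0.924 to 1.09, and its log2 ratio of 0.01 became -0.01 when both libraries were rescaled to the same sum. Jund (ENSMUSG00000071076; chromosome 8, 70698949 to 70700616, plus strand), the JUN gene known for steady expression and for restraining growth in fibroblasts, was the exception. It was at 3.42 RPKM in T136A and 7.71 RPKM in WT, from 105 reads in T136A and 225 in WT, and so 2.25-fold lower (1.78 to 2.87). Its log2 ratio of -0.98 fell just short of 2-fold and had rank 405 from the bottom of the 12320 genes.

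Summed per length, the 3 FOS genes of the set made 2.38 RPKM in T136A and 1.12 RPKM in WT, 2.11 times as much. The 3 JUN genes made 32.9 RPKM in T136A and 36.9 RPKM in WT, 0.890 times as much. The JUN sum was thus 13.8 times the FOS sum in T136A and 32.8 times in WT. Within the JUN sum, Junb made 82.3% in T136A and 72.9% in WT, Jund made 10.4% in T136A and 20.9% in WT, and Jun made 7.26% in T136A and 6.21% in WT. Junb was the main JUN message in both libraries, and Jund had the smaller share in T136A.

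Ier3 (also called IEX-1), which modulates cell death and ERK signalling, was the second gene past 2-fold (ENSMUSG00000003541; chromosome 17, 35821684 to 35822923, plus strand). It was at 13.6 RPKM in T136A and 4.95 RPKM in WT, from 283 reads in T136A and 98 in WT. The ratio was 2.75 (2.18 to 3.49) and the log2 ratio 1.30, rank 179 from the top. Ier2 (ENSMUSG00000053560; chromosome 8, 84661331 to 84662852, minus strand), a short gene for a nuclear protein, was at 101 RPKM in T136A and 90.2 RPKM in WT. With 2829 reads in T136A and 2402 in WT its ratio of 1.12 had an interval of 1.06 to 1.18, which excluded 1 although the log2 ratio was only 0.16. Of the related genes, chosen after their values were seen, Ier5 was at 1.19 RPKM in T136A and 0.488 RPKM in WT, and Ier5l at 15.8 RPKM in T136A and 9.35 RPKM in WT. Ier3 was the only gene of these past 2-fold on the main measure. In plain RPKM Ier5 was past it too, with a ratio of 2.45 (1.56 to 3.93).

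Dusp1, the phosphatase MKP-1 that inactivates p38, JNK and ERK, did not follow Egr1 (ENSMUSG00000024190; chromosome 17, 26505590 to 26562128, minus strand). It was at 5.20 RPKM in T136A and 8.51 RPKM in WT, a log2 ratio of -0.62. The exon length of 3311 bases gave no whole reads. Lengths of 1798, 2697 and 3596 bases did, and the shortest, with 172 reads in T136A and 268 in WT, gave the widest interval. On that reading Dusp1 was 1.64-fold lower in T136A (1.35 to 1.99). The GENCODE model of Dusp1 reaches far upstream of the RefSeq start used below, and which exons the authors counted is unknown.

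Counting intervals that excluded 1 were common: 31.7% of 10771 genes with recovered reads had one above 1 and 36.9% one below 1. Among all 10 members 4 had an interval above 1 (Egr1, Fos, Ier2 and Ier3), 2 had one below 1 (Jund and Dusp1) and 4 had one that held 1 (Fosb, Fosl1, Jun and Junb).

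**Figure D2:**
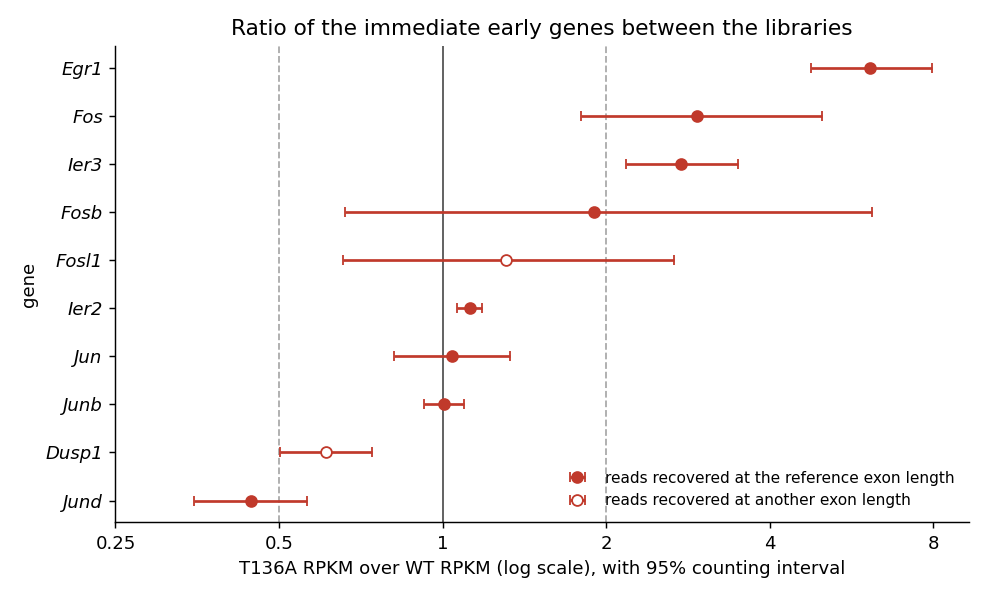
Ratio of T136A RPKM to WT RPKM for each immediate early gene on a log axis, with its 95% counting interval; the solid line marks a ratio of 1 and the dashed lines 2-fold, and open circles mark the 2 genes whose reads were recovered at another exon length. Egr1 stands at 6.11 and Jund at 0.444, and the intervals of Fosb, Fosl1, Jun and Junb cross 1.

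Most of the genes have few exons, which the choice by name did not use. Their longest protein-coding transcript in GENCODE M21 had a median of 2 exons and 1927 bases, against 9 exons and 2992 bases over 10913 protein-coding genes at or above 1 RPKM. Length varied, from 1131 bases in Ier3 to 4484 bases in Egr1, and Egr1, Fosb and Jun exceed the median of those genes. Jun, Junb, Jund and Ier2 have 1 exon, which is 40% of the members against 2.57% of those genes. One-exon genes as a class had a median log2 ratio of -0.03, the same as all genes to 2 decimals. Several members overlap another gene on the opposite strand, and since it is not stated whether strand was used in counting, such reads cannot be told apart. Fosl1 shares 1163 exon bases with Ccdc85b (31.2 RPKM in T136A and 29.6 RPKM in WT), Junb shares 173 with Prdx2 (56.7 RPKM in T136A and 58.2 RPKM in WT), and Dusp1 shares 11 with Ergic1. Jund shares 877 of its 1668 exon bases with the antisense gene Gm11175, which had no value in either library. Jun shares 232 with Junos, listed at 0 in both libraries.

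The 250 bases before the RefSeq start (build GRCm38.p6) are shown for Fos and Ier3, which were higher in T136A, for Dusp1, which was lower, and for Junb, which was level, because CREB and the general factors can act on such genes near their start. The sequences are from RefSeq. Capitals mark the CRE core TGACGT, to which CREB binds, and the TATA box TATAAA. Windows were found for 7 members: Fos, Fosb, Jun, Junb, Jund, Ier3 and Dusp1. That of Jund ends at base 70697738, upstream of its GENCODE start at 70698949, so its window may not be the promoter of the counted transcript.
Fos, chr12:85473640-85473889, plus strand: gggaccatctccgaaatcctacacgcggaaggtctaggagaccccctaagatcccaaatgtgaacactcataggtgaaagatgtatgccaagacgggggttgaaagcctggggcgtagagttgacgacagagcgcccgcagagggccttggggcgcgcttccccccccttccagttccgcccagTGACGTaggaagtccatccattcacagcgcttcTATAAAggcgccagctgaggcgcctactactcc
Ier3, chr17:35821463-35821712, plus strand: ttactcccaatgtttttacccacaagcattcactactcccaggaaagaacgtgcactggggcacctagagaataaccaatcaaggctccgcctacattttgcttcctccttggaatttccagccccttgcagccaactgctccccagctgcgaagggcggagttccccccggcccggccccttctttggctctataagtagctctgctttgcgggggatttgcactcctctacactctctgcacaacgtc
Dusp1, chr17:26508473-26508722, minus strand: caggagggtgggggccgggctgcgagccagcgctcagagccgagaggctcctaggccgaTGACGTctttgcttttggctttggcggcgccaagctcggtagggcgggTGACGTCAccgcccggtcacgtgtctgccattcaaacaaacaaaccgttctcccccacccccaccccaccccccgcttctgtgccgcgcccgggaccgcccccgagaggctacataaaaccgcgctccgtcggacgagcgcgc
Junb, chr8:84978749-84978998, minus strand: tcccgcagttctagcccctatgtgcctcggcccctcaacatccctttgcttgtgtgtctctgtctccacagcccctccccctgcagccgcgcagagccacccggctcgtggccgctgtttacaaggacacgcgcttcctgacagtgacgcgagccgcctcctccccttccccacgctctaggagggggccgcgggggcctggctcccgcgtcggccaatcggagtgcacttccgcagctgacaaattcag
Both strands were searched, and positions count back from -1 at the base before the start. TGACGT was in 2 of the 7 windows, those of Fos (positions -66 to -61) and Dusp1 (-191 to -186, and an overlapping pair from -143 to -136 that spells the full palindrome TGACGTCA), and in 6.47% of 32851 such windows over all genes. TATAAA was in 1, that of Fos at -33 to -28, and in 12.4% of all windows. The EGR site GCGNGGGCG was in 1, that of Fosb at -50 to -42, where it overlaps a GC box, and in 4.70% of all. The GC box GGGCGG was in 5 (Dusp1, Fos, Fosb, Ier3 and Jun) and in 32.7% of all. The CArG box to which SRF binds, the AP-1 site TGANTCA and the ETS core CCGGAA were in 0 of the 7, and in 1.47%, 6.75% and 12.0% of all windows. Sites farther than 250 bases from the start, those of SRF included, were not searched, and Egr1, Fosl1 and Ier2 had no window. A motif missing here may therefore lie outside the window. A match is a run of letters and not a shown site, and Fos and Dusp1, which share the CRE core, differed in direction.

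**Figure D3:**
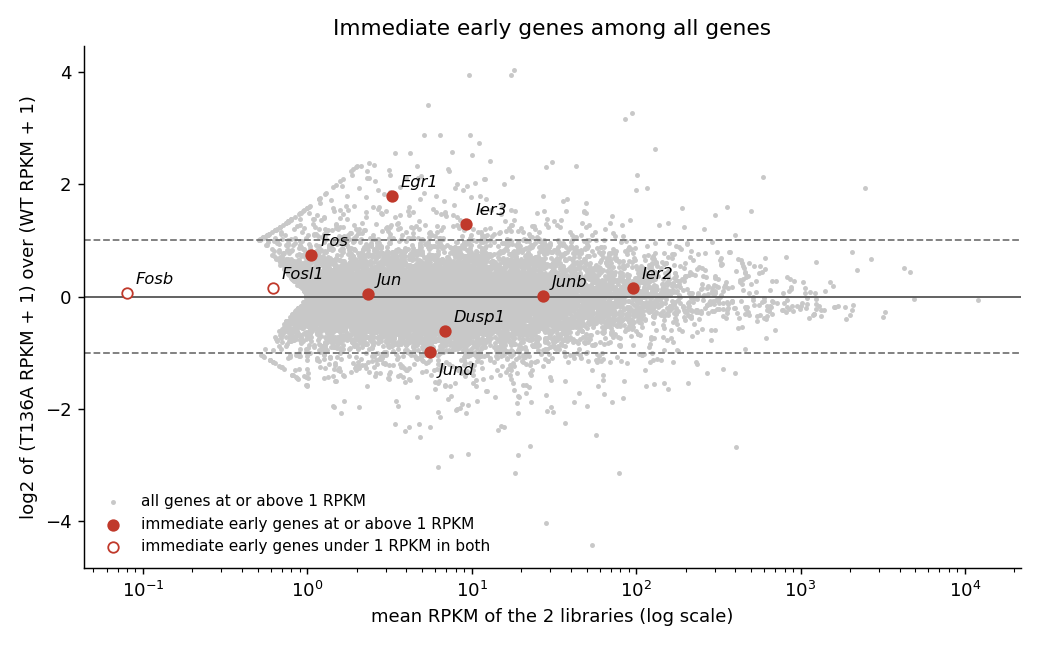
Log2 ratio of T136A to WT with 1 RPKM added, against the mean RPKM of the 2 libraries on a log axis, for all genes at or above 1 RPKM (grey) and the immediate early genes (red; open circles are under 1 RPKM in both libraries); dashed lines mark 2-fold. Egr1 at 1.78 and Ier3 at 1.30 lie above the upper line, and Jund at -0.98 lies just inside the lower one.

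A list of other immediate early genes was mixed in direction. Of 42 listed genes 41 were found and 33 reached 1 RPKM. In T136A 1 of the 33 was at least 2-fold higher, against 3.13% of all genes. At least 2-fold lower were 3, against 3.10% of all genes, and 29 lay between. The median log2 ratio was -0.07, beside -0.03 over all genes at or above 1 RPKM. With no minimum level it was 0.02 over all 41 found, beside 0 over all genes. The higher one was the growth regulator Myc, at 17.7 RPKM in T136A and 2.27 RPKM in WT. Next came the antiproliferative gene Btg2, at 39.2 RPKM in T136A and 22.2 RPKM in WT. The lower ones were the stress factor Atf3 (0.580 RPKM in T136A and 11.9 RPKM in WT), the growth arrest gene Gadd45a (5.76 RPKM in T136A and 17.7 RPKM in WT) and Klf10 (34.3 RPKM in T136A and 91.3 RPKM in WT). Atf3 reached 1 RPKM in WT only, so it could enter this count only by being lower in T136A. It also belongs to the amino acid stress response. Klf10 was chosen after its value was seen.

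Feedback genes of ERK signalling, which are read out from the same pathway as Egr1, lay on the higher side. All 10 reached 1 RPKM. In T136A 3 were at least 2-fold higher (3.13% of all genes were) and 0 at least 2-fold lower (3.10% of all genes). Each of the 10 had a positive log2 ratio, as did 47.4% of all genes. Their median was 0.55, and a link between them and the level of Egr1 was not tested. Spry4, an inhibitor of receptor signalling, was at 12.7 RPKM in T136A and 1.91 RPKM in WT, and the ETS factor Etv4 at 72.1 RPKM in T136A and 24.6 RPKM in WT. The smallest differences were those of Etv5 (101 RPKM in T136A and 85.9 RPKM in WT) and Dusp4 (2.32 RPKM in T136A and 1.75 RPKM in WT). Among 15 other dual specificity phosphatases, some of them also ERK feedback genes, none was 2-fold apart and the median was -0.01. The ERK phosphatase Dusp6 had the highest ratio, at 11.0 RPKM in T136A and 5.62 RPKM in WT, and Dusp3 the lowest, at 3.32 RPKM in T136A and 5.66 RPKM in WT.

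The factors that act on these genes had log2 ratios on both sides of 0. Of 13 SRF, ternary complex and CREB genes none was 2-fold apart, with log2 ratios from -0.22 to 0.42 and a median of -0.08. Srf was at 14.2 RPKM in T136A and 13.9 RPKM in WT. Its ETS partners Elk1 (6.39 RPKM in T136A and 5.56 RPKM in WT), Elk3 (2.88 RPKM in T136A and 1.96 RPKM in WT) and Elk4 (1.34 RPKM in T136A and 0.749 RPKM in WT) had ratios of 1.15 (1.02 to 1.29), 1.47 (1.20 to 1.81) and 1.79 (1.37 to 2.36). Their intervals all lay above 1, as did those of 31.7% of the 10771 genes with recovered reads. Elk4 reached 1 RPKM in T136A only. Nab1 and Nab2, corepressors that hold EGR1 in check, had ratios of 0.843 and 0.829, with intervals that held 1 (0.701 to 1.01 and 0.686 to 1.00). Of 26 kinases and adaptors of the RAS, ERK, JNK and p38 cascades 0 were at least 2-fold higher and 1 was at least 2-fold lower. Over all genes these shares were 3.13% and 3.10%. The 26 had a median of -0.01 over log2 ratios that ran from -1.15 to 0.76. The lower one was Rps6ka2, an ERK-activated kinase, at 6.32 RPKM in T136A and 15.3 RPKM in WT. Nras followed at 16.2 RPKM in T136A and 30.6 RPKM in WT. The adaptors Shc1 (21.5 RPKM in T136A and 12.3 RPKM in WT) and Grb2 (41.8 RPKM in T136A and 26.0 RPKM in WT) were at the upper end. Of 10 actin-related SRF targets none was 2-fold apart, and the median was 0.31, or 0.18 over the whole list with no minimum level. Cofilin, Cfl1, was at 581 RPKM in T136A and 384 RPKM in WT, beta-actin, Actb, at 391.7 RPKM in T136A and 264 RPKM in WT, and Zyx, an adhesion protein, at 4.10 RPKM in T136A and 5.44 RPKM in WT.

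Known targets of the encoded factors lay on both sides of 0, while the other AP-1 family genes that reached 1 RPKM lay below it. Of 13 other AP-1 family genes 7 reached 1 RPKM, and all 7 had a log2 ratio below 0 (52.6% of all genes did). Of these 1 was at least 2-fold lower (3.10% of all genes were) and 0 were at least 2-fold higher (3.13% of all genes). The median was -0.37, or -0.21 over the whole list with no minimum level. Atf7 reached 1 RPKM in WT only, while Fosl2 and Batf2, which were higher in T136A, stayed under it. The lower one, Jdp2, a repressor that pairs with JUN, was at 7.84 RPKM in T136A and 20.8 RPKM in WT, and Batf3 was at 1.43 RPKM in T136A and 3.51 RPKM in WT. Of 18 known AP-1 targets 13 were found and 7 reached 1 RPKM, with none 2-fold apart and a median of -0.11, or -0.01 with no minimum level. The intermediate filament Vim, also on the feeder fibroblast list, had the highest ratio, at 19.9 RPKM in T136A and 10.9 RPKM in WT, and the metallothionein Mt1 the lowest, at 121 RPKM in T136A and 212 RPKM in WT. Of 10 measured known EGR1 targets 8 had a log2 ratio below 0 (52.6% of all genes did). At least 2-fold lower was 1 (3.10% of all genes) and at least 2-fold higher were 0 (3.13% of all genes). The median was -0.40, or -0.25 over all 12 listed with no minimum level. Fibronectin, Fn1, which is also on the feeder fibroblast list, was at 32.9 RPKM in T136A and 93.4 RPKM in WT, and the growth factor Pdgfa at 9.52 RPKM in T136A and 5.13 RPKM in WT. The known targets did not share the ratio of Egr1, and these lists come from many cell types. Of 10 genes that bind or degrade short-lived messages none was 2-fold apart and the median was 0.15. Zfp36l1, which destabilizes them, was at 9.04 RPKM in T136A and 4.43 RPKM in WT, and the deadenylase Parn at 13.6 RPKM in T136A and 18.6 RPKM in WT.

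Heat shock genes, which like immediate early genes respond to stress and to the handling of cells, were higher in T136A. Of 8 that reached 1 RPKM 6 were at least 2-fold higher, against 3.13% of all genes. On the lower side 0 passed the limit, against 3.10% of all genes. Their log2 ratios ran from 0.07 to 2.13 around a median of 1.17. The constitutive chaperone Hspa8 was at 967 RPKM in T136A and 220 RPKM in WT. The inducible Hspa1b, whose reads may be shared with its near-identical copy Hspa1a, was at 6.73 RPKM in T136A and 1.57 RPKM in WT. Hspe1 had the smallest difference, at 548 RPKM in T136A and 520 RPKM in WT. They moved in the same direction as Egr1, Fos and Ier3 and opposite to Jund and Dusp1, and their part in those results was not tested.

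**Figure D4:**
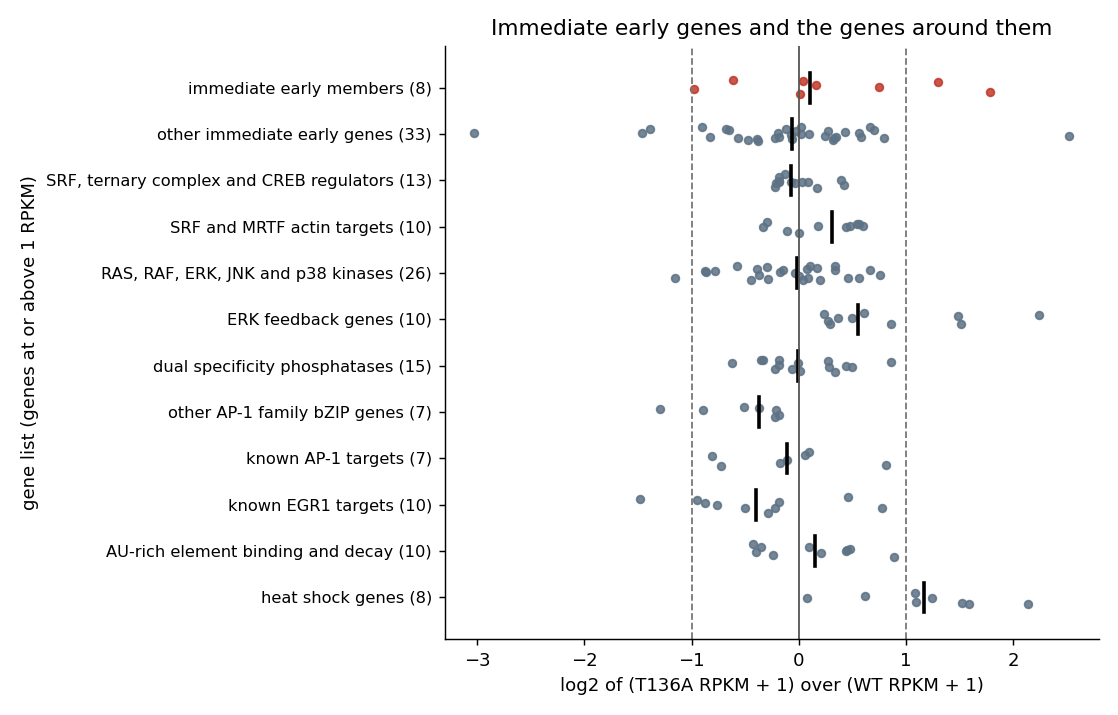
Log2 ratio of T136A to WT with 1 RPKM added for every gene at or above 1 RPKM in each list (points; their number in brackets), with the list's median as a black bar and 2-fold as dashed lines. The 10 ERK feedback genes and the 8 heat shock genes lie above 0 throughout, whereas the immediate early genes spread from -0.98 to 1.78.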

How the data were processed

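RNA was taken up in Trizol and libraries were made with an Illumina TruSeq kit, per the labels' protocols. The authors deposited 1 value per Ensembl gene and library, read here as RPKM although the files do not name the unit. Multiplied by the union exon length of GENCODE M21 (GRCm38) and by 1 constant per library, 90.0% of positive values in T136A and 89.9% in WT gave whole reads within 0.01. CASAVA 1.8 and mm9 are named without a role, per the submitters' processing notes; the aligner, the counting program and the use of strand are not stated there or in the labels.

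Symbols were matched for 25696 of 25749 identifiers. Of 9 that shared a symbol the higher total was kept, and Mrtfa, Mrtfb, Ccn1 and Ccn2 were found under these current symbols. Ratios, exact intervals and motif searches were computed in Python 3.11.15 with scipy 1.17.1, and tested on simulated data. Genes were counted from 1 RPKM in at least 1 library, with 1 RPKM added before log2. Intervals needed recovered reads, available for 10771 of 12320 genes (87.4%). Reads carry no molecular identifiers, so intervals cover counting error only. For Fosl1 and Dusp1, lengths from 0.5 to 1.1 times the reference were searched for whole reads.

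The members and lists were chosen with earlier results of these data known, and some genes are on more than 1 list. Named were all members, up to 2 genes at each end of every related list, Ahcy, Srf, Elk1, Elk3, Elk4, Nab1 and Nab2; paralogs of Egr1, Fos and Ier2, Klf10, Atf7, Batf2 and the markers Col1a1, Col1a2, Acta2 and Postn were added after their values were seen. Scaling, added constant, minimum level and the treatment of shared symbols were varied.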

Additional observations from a re-analysis of the deposited data

How the results depend on the processing

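No paired analysis was possible because each genotype had 1 library, and for the same reason no replicate could be left out. The added constant moved the counts most. With 0.1 RPKM added, 3 members (Egr1, Fos and Ier3) were at least 2-fold higher and 1 (Jund) lower, and over all genes 723 were higher and 727 lower. With 5 added, 0 members were higher, and over all genes 101 were higher and 114 lower. The plain RPKM ratio, an alternative chosen after seeing the data, gave 1 lower member (Jund), and 776 higher and 783 lower genes. At a minimum level of 5 RPKM, 209 genes stayed past 2-fold on the higher side. By construction the added constant weighs most on weakly expressed genes such as Fos, and a higher minimum leaves fewer genes; no other cause was tested. With no minimum level the median log2 ratio moved to 0.18 for the SRF actin targets, -0.25 for the EGR1 targets, -0.21 for the AP-1 family, -0.01 for the AP-1 targets, 0.09 for the feeder markers and 0.26 for the primitive endoderm markers, against 0.31, -0.40, -0.37, -0.11, 0.55 and 0.54 with it. In the 5 rescalings no member other than Junb changed the sign of its log2 ratio, and Egr1 kept 1.77 to 1.81, Ier3 1.28 to 1.34 and Jund -0.99 to -0.93. Depth limits Fosb and Fosl1, whose reads numbered 22 at most in either library.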
